A study of Mus musculus with 16 samples.

Results

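Interferon gamma induces families of large GTPases in mouse cells, and 10 of these genes were followed here through lungs given bleomycin. The set was named by gene: Gbp2, Gbp3, Gbp4, Gbp5, Gbp6 and Gbp7 of the guanylate-binding proteins (GBPs), and Igtp, Irgm1, Irgm2 and Iigp1 of the immunity-related GTPases (IRGs). All 10 were found by symbol among the 53647 genes of the table, and all 10 were among the 17003 genes tested, those that reached 1 TPM in 4 or more libraries. TPM corrects each transcript's abundance for its length and expresses it as a part of all transcripts in the library.

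RNA-seq was done on mouse lung in 4 groups of 4 libraries, 2 from each of 2 batches. Control lungs are labelled as control and nothing more. The other groups all had bleomycin, an anticancer drug whose lung toxicity serves as a mouse model of fibrosis. It was given alone (the bleomycin group), with an adenovirus named for GFP (Ad-GFP), or with an adenovirus named for ATP12A, the catalytic subunit of a non-gastric proton pump (Ad-ATP12A). The series title puts ATP12A forward as a target in idiopathic pulmonary fibrosis. No group with virus and without bleomycin was analysed here, so an effect of virus alone cannot be told apart from its effect in injured lung. The labels give no strain, sex, age, dose, route or day, and do not say which cells the virus reached. They do not say that replicates were separate animals, so p-values measure the spread between these libraries, which may be technical. A library is written below by batch and replicate, as in b2r1 for batch 2, replicate 1.

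GBPs and IRGs are made at low levels in resting cells and in large amounts after interferon gamma. The cytokine, made mainly by T cells and natural killer cells, signals through JAK1 and JAK2 to promoters that hold the gamma-activated site (GAS). IRF1 and related factors act at the interferon-stimulated response element (ISRE), which type I interferon also uses. GBPs assemble on membranes of pathogen vacuoles and bacteria, and feed inflammasomes. Among the IRGs, Iigp1 (also called Irga6) is an effector that loads onto vacuoles. Irgm1, Igtp and Irgm2 are regulators that sit on the cell's own membranes and keep the effectors inactive there.

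The members lie in gene clusters. In the GENCODE M21 annotation, Gbp5, Gbp7, Gbp3 and Gbp2 are on chromosome 3, Gbp4 and Gbp6 on chromosome 5, and Irgm1, Igtp and Irgm2 on chromosome 11; Iigp1 lies elsewhere. Promoter windows of 250 bases before the start were found for 7 of the 10 members in the RefSeq table (build GRCm38.p6, an earlier build than that of the expression values). Both strands were searched for GAS as TTCNNNGAA and for the core of the ISRE as GAAANNGAA. The ISRE core was in a window of 7 of these 7 genes, against 7.13% of the 32851 promoter windows of the table. GAS was in 4 of 7, Gbp5, Gbp7, Igtp and Irgm2, against 7.02% of windows. The 7 genes have 8 windows, and the second window of Gbp3 holds neither motif. No match of one motif overlapped a match of the other. A match describes letters and is not a measured binding site.

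The 4 windows with both motifs, which 0.752% of all windows hold, are printed here 5′ to 3′ on the plus strand because they set Gbp7, which passed in no comparison of the 16 libraries below, beside genes that did. Capitals mark GAS and ISRE core matches. The last 34 bases of the Gbp5 window are left out, since an annotated exon starts there.
Igtp, chr11:58199306-58199555: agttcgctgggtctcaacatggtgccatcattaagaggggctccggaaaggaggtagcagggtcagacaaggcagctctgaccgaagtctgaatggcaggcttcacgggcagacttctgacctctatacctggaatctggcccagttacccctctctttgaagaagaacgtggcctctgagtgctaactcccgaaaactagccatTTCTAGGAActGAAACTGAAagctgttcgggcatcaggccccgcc
Irgm2, chr11:58214727-58214976: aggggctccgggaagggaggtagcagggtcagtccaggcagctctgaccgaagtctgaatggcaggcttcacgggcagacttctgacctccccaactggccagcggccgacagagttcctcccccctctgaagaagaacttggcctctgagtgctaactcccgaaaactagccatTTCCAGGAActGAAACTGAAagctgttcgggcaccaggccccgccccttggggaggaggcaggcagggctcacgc
Gbp5, chr3:142496684-142496899: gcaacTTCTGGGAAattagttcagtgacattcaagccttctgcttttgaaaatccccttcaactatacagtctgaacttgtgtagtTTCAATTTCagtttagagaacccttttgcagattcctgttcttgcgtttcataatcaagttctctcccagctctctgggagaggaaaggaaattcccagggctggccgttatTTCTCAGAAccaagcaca
Gbp7, chr3:142530086-142530335: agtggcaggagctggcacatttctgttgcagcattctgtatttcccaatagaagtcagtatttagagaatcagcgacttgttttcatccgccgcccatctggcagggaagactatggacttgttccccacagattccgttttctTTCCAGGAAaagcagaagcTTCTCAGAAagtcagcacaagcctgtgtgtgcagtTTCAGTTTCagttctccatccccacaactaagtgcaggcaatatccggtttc
Igtp and Irgm2 carry the same ISRE core match, GAAACTGAA, just after a GAS match. It begins 34 bases before the RefSeq start in Igtp and 64 in Irgm2. For Igtp and Gbp5, a stretch just after that start occurs in a GENCODE M21 transcript of the gene. For Irgm2 and Gbp7 it does not, so distances to the start are less certain there. The Igtp and Irgm2 windows are much alike in sequence around these matches, so their matches are not independent. In Gbp5 and Gbp7 the ISRE core is on the minus strand and each gene has 2 GAS matches.

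Read depth is unknown, because TPM keep no counts. The libraries held 15537 to 16336 genes at 1 TPM or more, and the lowest correlation of log2 values between libraries of a group was 0.929. In 3 libraries (control b2r1, bleomycin b2r2 and Ad-GFP b1r1) Scgb1a1, the secretoglobin of airway club cells, stood at 128 to 441 TPM, against 24870 to 122338 TPM in the other 13. The lung epithelial marker Sftpc, a surfactant protein, had means of 5976 to 24061 TPM over the groups and batches. For the GTPases, Ad-GFP b2r2 and Ad-ATP12A b2r1 stood apart at the top, with summed levels of the 10 genes of 824 and 838 TPM against 216 to 467 TPM in the other 14 libraries. Values that these libraries moved most are also given without them. In bulk lung, fewer cells of a type and less RNA per cell cannot be told apart.

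**Figure D1:**
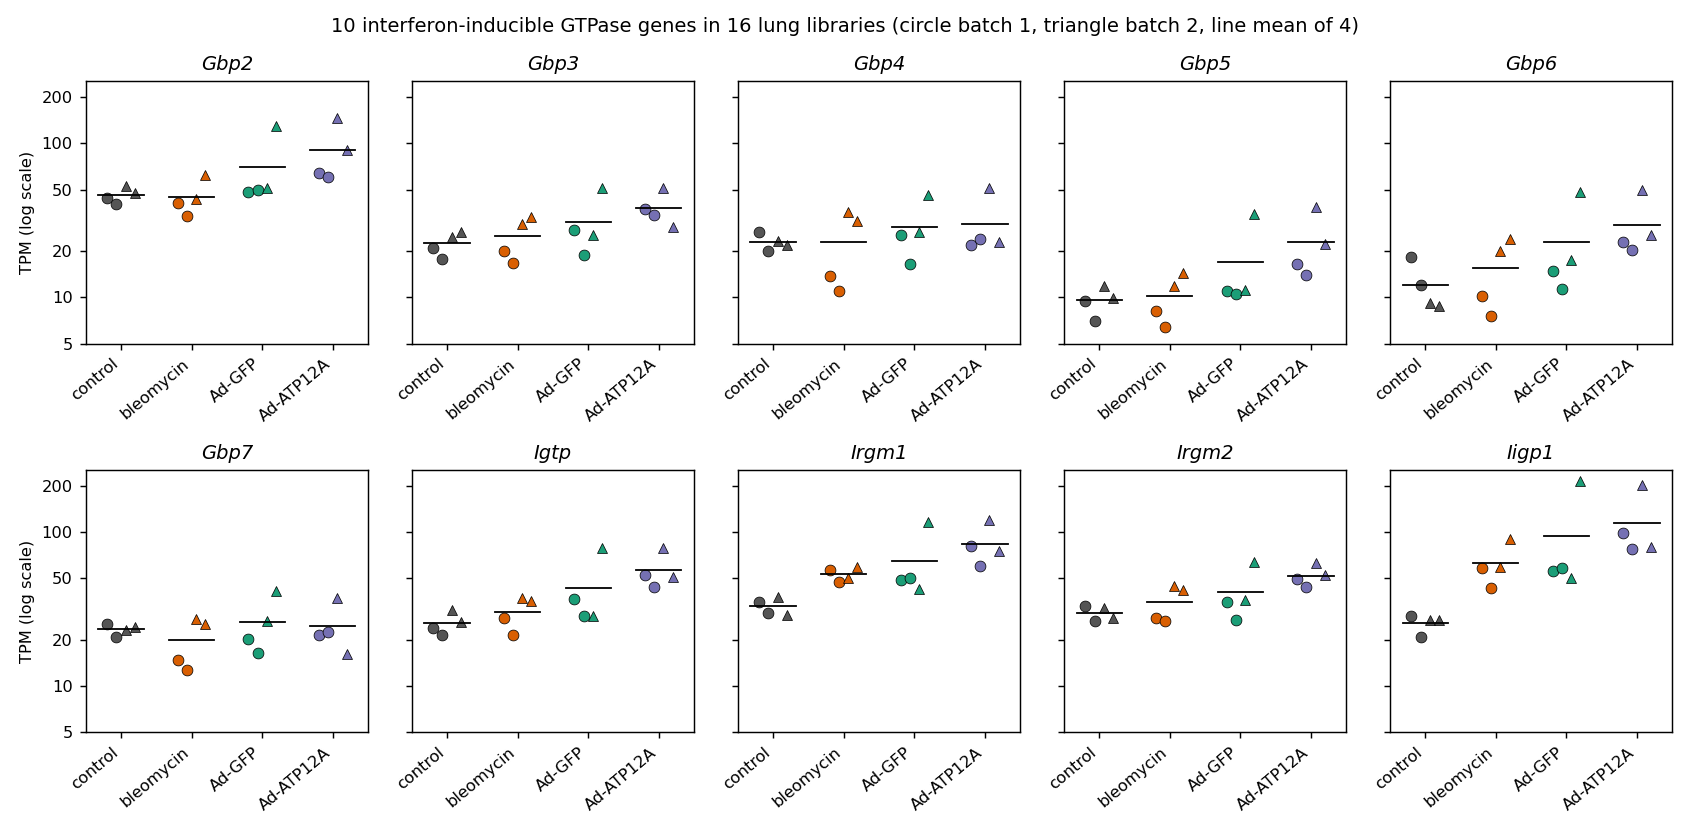
TPM (log axis) of each GTPase gene in the 16 lung libraries by group, with circles for batch 1, triangles for batch 2 and a line at the mean of 4. Iigp1 and Irgm1 are above all controls in every library with bleomycin, and the highest Ad-GFP and Ad-ATP12A points are the same 2 libraries, Ad-GFP b2r2 and Ad-ATP12A b2r1, for all 10 genes.

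In control lungs all 10 genes were expressed, in a narrow band. Gbp2 was the most abundant by TPM, at 46.3 ± 5.38 (SD, n = 4), and the next levels, of Irgm1, Irgm2, Iigp1 and Igtp, lay between 25.6 and 32.9 TPM with ranges that overlapped between neighbours. Gbp5 was the least abundant, at 9.54 ± 1.96 TPM (SD, n = 4). By group mean Iigp1 took the first rank in each group with bleomycin, at 62.6 TPM after bleomycin, 94.2 TPM in Ad-GFP and 114 TPM in Ad-ATP12A lungs. Gbp5 kept the last rank by mean in all 4 groups. Single libraries departed from these ranks. Gbp2 exceeded Iigp1 in Ad-GFP b2r1 (51.45 against 49.92 TPM) and Ad-ATP12A b2r2 (91.02 against 79.75 TPM). Irgm1 exceeded Iigp1 in bleomycin b1r2 (47.32 against 43.57 TPM). Gbp6 was below Gbp5 in control b2r1 and b2r2, and Gbp7 was below Gbp5 in Ad-ATP12A b2r2.

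Bleomycin alone raised 1 of the 10 genes. That gene was Iigp1, the vacuole-loading effector. Its levels in control libraries were 28.4, 20.6, 26.9 and 27.0 TPM in the order b1r1, b1r2, b2r1, b2r2. After bleomycin they were 58.0, 43.6, 59.0 and 89.9 TPM in the same order. The groups did not overlap, and every bleomycin library was above the highest control. On the log2(TPM + 1) scale the change was 1.21 (SE 0.368, limma adjusted p = 0.0348), and it was 1.02 in batch 1 and 1.40 in batch 2. Over 29 alternative settings the adjusted p ran from 0.00153 to 0.322, and 19 of them called the gene. The call was lost with no filter on low values, with no batch term, in batch 2 alone, without the libraries low in Scgb1a1 (adjusted p = 0.169), and on leaving out control b1r2, b2r1 or b2r2 or bleomycin b1r1, b1r2 or b2r2 (adjusted p between 0.0633 and 0.0974).

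Irgm1, which guards the cell's own membranes, also separated the groups without passing the test. Controls held 35.1, 29.7, 37.8 and 29.1 TPM and bleomycin libraries 57.0, 47.3, 50.3 and 59.0 TPM. All 4 bleomycin libraries were above all 4 controls, and the difference was 0.68 (SE 0.249, limma adjusted p = 0.0692), with 0.67 in batch 1 and 0.70 in batch 2. With Ad-GFP b2r2 left out of the shared estimate of spread, the same difference had an adjusted p of 0.0152, and without Ad-GFP b2r1 0.0430; the range over alternatives was 0.00479 to 0.436. The other 8 genes ranged from -0.28 for Gbp7 (adjusted p = 0.448) to 0.26 for Gbp6 (adjusted p = 0.677), and each overlapped the controls. The groups did not overlap in 2 of 10 members and in 23.4% of all genes tested. Of all genes tested, 18.8% passed in this comparison, 13.2% in the upward direction, and 1 of 10 members is no larger a share. The median difference of the members was 0.16, against 0.05 over all genes tested. Of all genes called, 2247 rose and 954 fell with the values as deposited, and 1747 rose of 3456 called after quantile normalization.

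Within batch 1 alone, 4 members passed after bleomycin and they split by direction, where 27.6% of 16016 genes passed, 15.3% upward. A count of 4 of 10, in both directions, is not far from that share. Iigp1 (1.02, limma adjusted p = 0.0157) and Irgm1 (0.67, adjusted p = 0.0315) rose. Gbp4 (-0.86, adjusted p = 0.0354) and Gbp7 (-0.71, adjusted p = 0.0190) fell, Gbp7 from 25.2 and 20.9 TPM to 14.8 and 12.6 TPM. In batch 2 alone 0 members passed, as did only 0.186% of genes, and the Gbp4 and Gbp7 differences were 0.55 and 0.15. The signs of Gbp3, Gbp5, Gbp6 and Irgm2 were negative in batch 1 (-0.08, -0.16, -0.68 and -0.12) and positive over both batches, and Gbp2 was at 0.05 in batch 2 and -0.06 over both. These fits rest on 2 libraries a group, and Gbp4 and Gbp7 did not pass over both batches.

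Ad-GFP lungs differed from controls in 2 of the 10 genes, Iigp1 and Irgm1. Iigp1 stood at 55.7, 58.1, 49.9 and 213 TPM (order as above), and Irgm1 at 49.2, 50.4, 42.9 and 115 TPM. Each library exceeded every control, but b2r2 was far above its 3 neighbours. The differences were 1.55 for Iigp1 (SE 0.368, limma adjusted p = 0.0155) and 0.84 for Irgm1 (SE 0.249, limma adjusted p = 0.0396). The background was 13.7% of genes called, and 15.3% did not overlap between the groups. Leaving out b2r2 of this group, Iigp1 still passed and Irgm1 did not (0.54, adjusted p = 0.1). Irgm1 also lost the call on leaving out any 1 control, bleomycin b1r2 or b2r2, or Ad-GFP b1r1 or b1r2. Without the libraries low in Scgb1a1 neither gene passed (adjusted p = 0.0664 and 0.104); over all alternatives the adjusted p ran from 0.00487 to 0.200 for Iigp1 and from 0.0109 to 0.248 for Irgm1. The remaining 8 genes ran from 0.08 for Gbp7 to 0.71 for Gbp6, and their ranges overlapped those of the controls. The member median was 0.52, against 0.03 over all genes, and 0.23 without b2r2 of this group.

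In Ad-ATP12A lungs 8 of the 10 genes were higher than in controls, 4 of them GBPs and 4 IRGs, and for these 8 no library overlapped a control library. Gbp4 and Gbp7 were the exceptions. The background was 22.8% of genes called, 13.3% upward, and 24.8% of all genes did not overlap between these groups. The member median was 0.98, against 0.00 over all genes. All 3 comparisons with controls share the same 4 control libraries, so their counts are not independent. Of all genes called here, 2261 rose and 1613 fell as deposited, and 1992 rose of 4337 after quantile normalization.

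**Figure D2:**
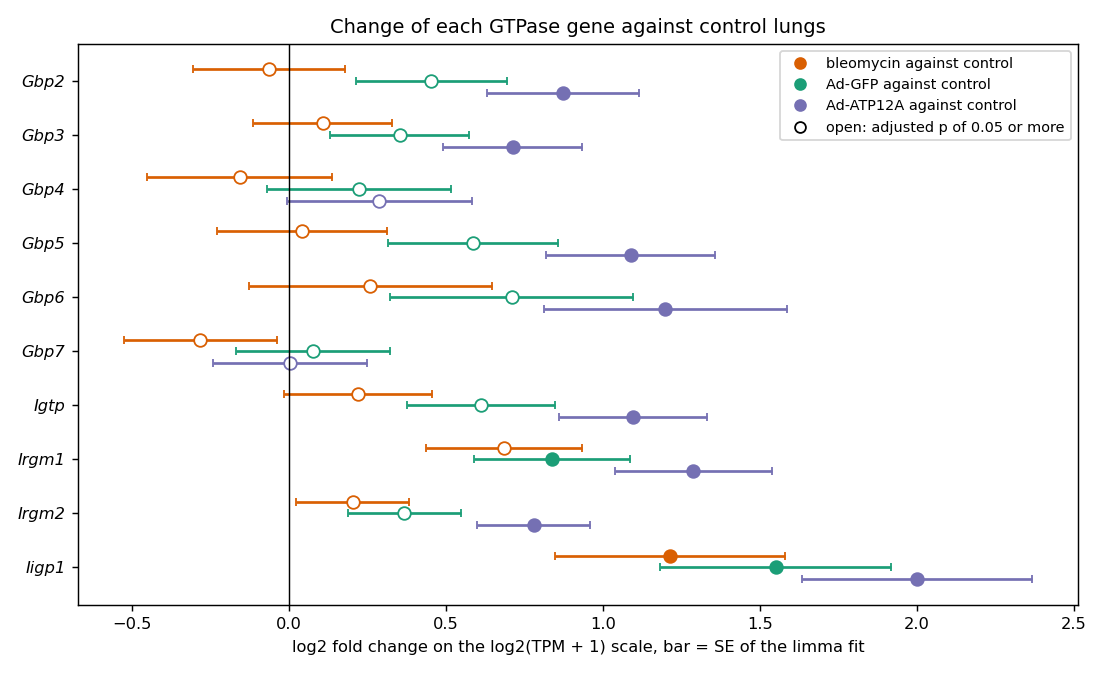
Log2 fold change on the log2(TPM + 1) scale of each GTPase gene in bleomycin, Ad-GFP and Ad-ATP12A lungs against control, with the SE of the limma fit as bars; filled points had an adjusted p under 0.05. The Ad-ATP12A points are filled for all genes but Gbp4 (0.29) and Gbp7 (0.00), and Iigp1 lies farthest to the right, at 2.00.

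Among the IRGs, the effector Iigp1 reached 98.4, 77.3, 201 and 79.8 TPM in the Ad-ATP12A libraries. The difference was 2.00 (SE 0.368, limma adjusted p = 0.00277). Every one of these libraries was far above the highest control of 28.4 TPM. The 3 regulators rose less. Irgm1, at 81.5, 59.8, 119.9 and 74.8 TPM, was higher by 1.29 (adjusted p = 0.00348). Igtp, also called Irgm3, stood at 23.7, 21.6, 31.0 and 26.1 TPM in controls and at 52.5, 43.9, 79.3 and 51.2 TPM in Ad-ATP12A lungs. It rose by 1.10 (adjusted p = 0.00605). Irgm2 rose from 33.0, 26.3, 32.1 and 27.6 TPM to 49.2, 43.8, 62.5 and 52.6 TPM, a difference of 0.78 (adjusted p = 0.00888).

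Among the GBPs, Gbp6 and Gbp5 had the largest differences in Ad-ATP12A lungs. Gbp5, known for its part in inflammasome assembly, stood at 9.44, 7.02, 11.8 and 9.93 TPM in controls. In Ad-ATP12A lungs it stood at 16.5, 14.1, 38.4 and 22.1 TPM, a difference of 1.09 (SE 0.270, limma adjusted p = 0.0125). Gbp6 was at 18.2, 11.97, 9.18 and 8.71 TPM in controls and at 22.9, 20.2, 49.99 and 25.4 TPM in Ad-ATP12A lungs. It rose by 1.20 (adjusted p = 0.0394), by 0.51 within batch 1 and by 1.89 within batch 2. Of the 50-base stretches of Gbp6 transcripts, 70.7% also occur in transcripts of other genes, most in Gm43302, so its level depends on how reads were shared out. Summed with Gbp10 and Gm43302, the difference was 1.27 (adjusted p = 0.0323); over all alternatives the adjusted p of Gbp6 ran from 0.0160 to 0.173.

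Gbp2, which gathers on parasite vacuoles, had levels of 44.2, 40.5, 53.2 and 47.3 TPM in controls. The Ad-ATP12A levels were 64.6, 60.8, 147 and 91.0 TPM, a rise of 0.87 (adjusted p = 0.0205). That call was lost on leaving out Ad-ATP12A b2r1 (0.70, adjusted p = 0.0723) or the low-Scgb1a1 libraries (0.0675), with no batch term (0.0698) and in batch 2 alone (0.0987). Over all alternatives its adjusted p ran from 0.00506 to 0.0987. Gbp3 rose by 0.71 (adjusted p = 0.0333), from 17.8 to 26.4 TPM in controls to 28.8 to 51.3 TPM. Gbp4, at 21.9, 23.8, 51.6 and 22.9 TPM, differed by 0.29 (adjusted p = 0.504); 3 of its 4 libraries lay within the control range of 19.8 to 26.65 TPM. Gbp7, linked to oxidase assembly on vacuoles, stood at 25.2, 20.9, 23.0 and 24.1 TPM in controls. In Ad-ATP12A lungs it stood at 21.5, 22.3, 37.5 and 16.2 TPM, spanning the control range, with a difference of 0.00 (SE 0.245, adjusted p = 0.994).

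The number called in Ad-ATP12A lungs moved with batch and with single libraries. Within batch 1 alone 7 of the 10 were called, against 17.8% of all genes, and within batch 2 alone 1, Gbp6, against 14.1%. Without the libraries low in Scgb1a1 5 were called, against 15.9% of all genes. Without Ad-ATP12A b2r1 also 5 were called, against 13.2%, and in both of these fits Gbp2, Gbp3 and Gbp6 were lost. Without Ad-GFP b2r2 and Ad-ATP12A b2r1 6 were called, against 13.8%, those of Gbp3 and Gbp6 being lost. Igtp, Irgm1, Irgm2 and Iigp1 each passed in 28 of 29 alternatives, all but batch 2 alone; Gbp3 passed in 18 of 29 and Gbp6 in 17 of 30. The sign of the Gbp7 difference flipped under quantile normalization (-0.02) and median-ratio scaling (-0.02).

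**Figure D3:**
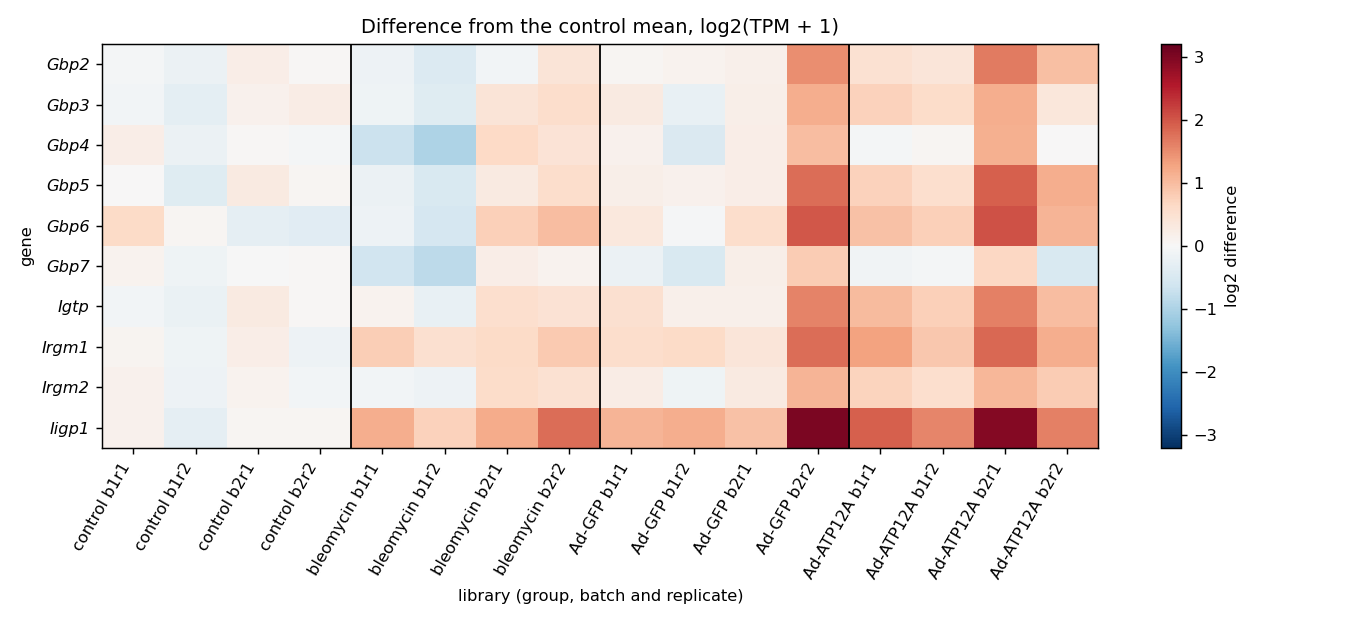
Difference of each library from the control mean on the log2(TPM + 1) scale, genes in rows and libraries in columns by group, red higher and blue lower. Ad-GFP b2r2 and Ad-ATP12A b2r1 are the darkest columns, and Gbp4 and Gbp7 are blue in the batch 1 bleomycin libraries, where Iigp1 and Irgm1 are red.

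Neither comparison among the lungs with bleomycin gave a called member. For Ad-GFP against bleomycin all 10 differences were positive, from 0.15 for Irgm1 to 0.54 for Gbp5, with a median of 0.37 against -0.03 over all genes. By limma 0 of 10 were called and 1, Gbp2, had an unadjusted p under 0.05 (0.52, adjusted p = 1.00); 0.0118% of all genes were called. Of all genes, 287 of 17003 had an unadjusted limma p under 0.05. All 10 members were lower without Ad-GFP b2r2. Then 7 of 10 were positive, the median was 0.11, Gbp5 was at 0.24 and Irgm1 turned to -0.15. Without Ad-GFP b2r1 the median was 0.56 and Gbp5 was at 0.81. For Ad-ATP12A against Ad-GFP, groups that differ in the gene their virus is named for, 9 of 10 differences were positive, with a median of 0.43 against -0.01 over all genes. They ran from -0.07 for Gbp7 to 0.50 for Gbp5, and limma called 0 of 10; 0.00588% of all genes were called. Here too single libraries moved the values. Gbp5 was at 0.81 and the median at 0.72 without Ad-GFP b2r2. Without Ad-ATP12A b2r1 they were 0.33 and 0.29, and without Ad-GFP b2r1 0.24 and 0.23. Only Irgm2 had an unadjusted p under 0.05 (0.41, SE 0.180, adjusted p = 0.999), and every member's ranges overlapped between these groups, as did those of all but 0.77% of genes. Of all genes, 413 of 17003 had an unadjusted limma p under 0.05 here. Both comparisons share the Ad-GFP libraries. Ad-ATP12A against bleomycin alone was not tested.

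Relative to the GBPs, the summed IRGs stood higher in lungs with bleomycin, with Iigp1 and Irgm1 carrying much of the gap. In each library the summed TPM of the 4 IRGs was divided by that of the 6 GBPs. In controls the ratio was 0.79 to 0.88. It was 1.14 to 1.58 after bleomycin, 0.99 to 1.34 in Ad-GFP and 1.23 to 1.52 in Ad-ATP12A lungs. All 12 libraries with bleomycin lay above all 4 controls. With Iigp1 left out of the sum, the controls lay at 0.60 to 0.70 and the others at 0.68 to 1.08. Then 11 of 12 were above all controls, Ad-GFP b2r1 (0.679) was not, and Ad-ATP12A b2r1 (0.697) stood next to the highest control (0.695). Leaving out Igtp, Irgm1 or Irgm2 in its place kept all 12 above. Igtp and Irgm2 without the other IRGs did not separate the groups, though most libraries with bleomycin still lay above all controls. In Ad-ATP12A b2r1 these genes stood at 79.3 and 62.5 TPM beside a GBP sum of 375.5 TPM. In control b2r1 they stood at 30.95 and 32.1 TPM beside 145 TPM, a larger part. The 2 batch 1 bleomycin libraries had the highest ratios, 1.58 in each, with GBP sums of 108 and 87.8 TPM, below every control (118 to 145 TPM). The 2 libraries with the highest GTPase levels had ratios of 1.34 and 1.23, inside the range of the other libraries with bleomycin. A ratio inside a library cannot by itself show which family moved. The IRG sums were 98.2 to 127.7 TPM in controls and 138.6 to 226.4 TPM after bleomycin alone. The GBP sums were 118 to 145 TPM and 87.8 to 189.8 TPM, with means of 136 and 138 TPM. The ratio was examined after the values were seen and has no test.

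**Figure D4:**
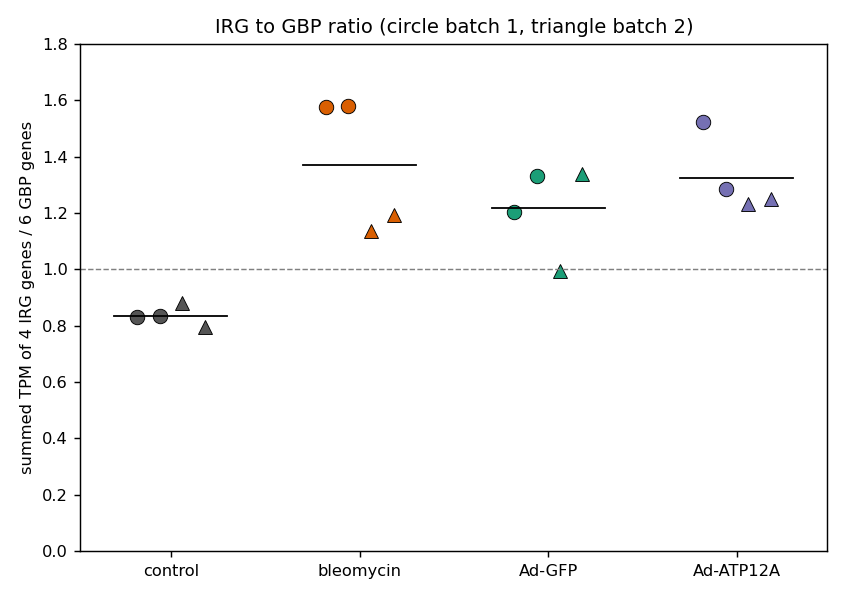
Summed TPM of the 4 IRG genes divided by that of the 6 GBP genes in each library, with circles for batch 1, triangles for batch 2 and a line at the group mean. Controls lie at 0.79 to 0.88 and all libraries with bleomycin at 0.99 or more.

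The members also differed between batches. Batch 2 was higher than batch 1 in 5 of 10 members, Gbp5 (0.72, adjusted p = 0.0225), Gbp4 (0.67, adjusted p = 0.0385), Gbp2 (0.58, adjusted p = 0.0327), Gbp3 (0.47, adjusted p = 0.0496) and Irgm2 (0.40, adjusted p = 0.0417). The smallest difference was that of Irgm1, 0.26 (adjusted p = 0.317). The background was 18.5% of genes called, and 16.4% of all genes tested were called higher in batch 2. The member median was 0.50, against 0.09 over all genes. Quantile normalization moved the all-gene median to -0.01 and left 0 members called, and median-ratio scaling also moved it to -0.01 and left 1. Of all genes called, 2783 of 3141 were higher in batch 2 as deposited, and 1103 of 2115 after quantile normalization. Without Ad-GFP b2r2 and Ad-ATP12A b2r1, both of batch 2, 0 members were called, against 1.66% of all genes. Leaving out bleomycin b1r2 or b2r2 alone also gave 0, against 9.53% and 9.79% of all genes, and leaving out any other single library gave 1 to 7. Without the 3 libraries low in Scgb1a1 0 members and 0% of all genes were called.

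The batch gap was small in controls and larger after bleomycin alone, and in the virus groups it rested on 1 library each. In controls 8 of 10 genes were higher in batch 2, with a median gap of 0.09. In bleomycin, Ad-GFP and Ad-ATP12A lungs all 10 were, with median gaps of 0.71, 0.75 and 0.48. Without Ad-GFP b2r2 the Ad-GFP gap fell to a median of 0.11, with Igtp, Irgm1 and Iigp1 negative. Without Ad-ATP12A b2r1 the Ad-ATP12A gap fell to 0.09, the size of the control gap, with Gbp3, Gbp7 and Iigp1 negative. Leaving out any 1 bleomycin library gave medians of 0.62 to 0.83 in that group. In controls, leaving out any 1 library gave medians of -0.08 to 0.24, with 4 to 9 of 10 genes higher in batch 2. Gbp4 stood at 13.7 and 10.9 TPM in the batch 1 bleomycin libraries and at 36.0 and 31.2 TPM in those of batch 2. Against controls of the same batch that was -0.86 in batch 1 and 0.55 in batch 2. Gbp6 went from -0.68 in batch 1 to 1.20 in batch 2. The test of the difference between batches gave 1.89 for Gbp6 (SE 0.589, limma adjusted p = 0.131) and 1.41 for Gbp4 (SE 0.5001, limma adjusted p = 0.170). By limma 0 of 10 members passed for bleomycin against control, against 0.0647% of all genes. An unadjusted p under 0.05 was found for 2 of 10 members and for 3230 of 17003 genes, a like share. For Ad-ATP12A against Ad-GFP 0 of 10 members and 0% of all genes passed. There 0 members had an unadjusted p under 0.05, against 1070 of 17003 genes.

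The members varied together across libraries. Over their 45 pairs the Pearson correlation of log2(TPM + 1) over 16 libraries had a median of 0.85, from 0.38 for Gbp7 with Irgm1 to 0.99 for Gbp2 with Gbp5. With group and batch means taken out the median was 0.90. Irgm1 and Iigp1 formed a close pair (0.97), and so did Gbp4 and Gbp7 (0.94). Among genes with both motifs in a window, Igtp with Irgm2 had 0.94 and Gbp5 with Gbp7 0.68. The ISRE core lies between the GAS matches in Gbp5 and nearest the RefSeq start in Gbp7. Gbp2, in whose window no GAS match was found, had 0.99 with Gbp5. A link between motifs and these values was not tested. The points share libraries, batches and the 2 high libraries, so these values are a description.

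Other genes that followed the mean of the 10 members were searched for among 12210 genes with a mean of at least 5 TPM. Among the 10 closest named genes outside the set were Tgtp2, Ifi47, Parp9, Tap1, Trafd1, B2m, Slfn1, Iqgap2 and Hcst, with Pearson correlations from 0.93 down to 0.89 over 16 libraries. Genes with symbols of predicted models were left out, among them Gm4951 (0.96) and Gm12250 (0.94), which followed more closely. Both are on the list of other GBP and IRG genes used below. Tgtp2 and Ifi47 are IRGs of the chromosome 11 cluster, and Tap1 and B2m serve antigen presentation by MHC class I. Leaving out the 2 high libraries changed Tgtp2 to 0.88 and Iqgap2 to 0.68.

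Upstream genes gave a mixed picture. Ifng, the ligand, was near the bottom of detection, at 0 to 0.49 TPM in controls, 0.37 to 0.63 after bleomycin, 0.39 to 1.5 in Ad-GFP and 0.39 to 1.79 in Ad-ATP12A lungs, and it was not tested. Its highest values were in Ad-ATP12A b2r1 (1.79 TPM) and Ad-GFP b2r2 (1.5 TPM), the same 2 libraries that led the GTPases. Its Pearson correlation with the member mean was 0.88, and 0.69 without those 2. Irf1, which acts at the ISRE, was at -0.27 after bleomycin (adjusted p = 0.0662) and at 0.08 in Ad-ATP12A lungs (adjusted p = 0.575). For the counts of genes that rose in bleomycin, Ad-GFP and Ad-ATP12A lungs against controls, here and in the lists that follow, the shares over all genes were 13.2%, 9.16% and 13.3%. Of the 11 tested genes of interferon gamma, its receptor and signalling, 3 rose after bleomycin (Ptpn2, Ifngr2 and Irf9), 1 in Ad-GFP and 5 in Ad-ATP12A lungs, and 0 fell.

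Related families gave these counts in the same comparisons with controls, in the order bleomycin, Ad-GFP, Ad-ATP12A. Of 11 other GBP and IRG genes tested, 1, 2 and 5 rose, the first no larger a share than over all genes. Tgtp1 rose in each, by 1.71, 2.23 and 3.05 (limma adjusted p = 0.0118, 0.00429 and 0.000353), though 81.2% of its 50-base stretches occur in other genes, mostly Tgtp2. Of 24 other interferon gamma targets 8, 11 and 17 rose, the T cell chemokines Cxcl10 (3.01, 2.77 and 3.68) and Cxcl9 (2.12, 2.86 and 3.90) among them. Of 18 type I interferon genes 8, 7 and 12 rose, Oas1a (1.44, 1.43 and 1.86) and Isg15 (1.70, 1.39 and 1.97) among them. Of 16 partners at vacuoles and in inflammasomes 2, 2 and 1 rose, the inflammasome adaptor Pycard in each (1.02, 0.90 and 1.20), and 1 fell in Ad-GFP lungs; these shares are near or below those over all genes. The median change of type I interferon genes after bleomycin was 0.82, against 0.16 for the members and 0.05 for all genes.

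T cell markers were high in the libraries with the most GTPase RNA. The summed TPM of 8 T cell markers fell into separate clusters. It was 46.5 to 75.4 TPM in the 4 controls, the batch 1 bleomycin libraries and 3 Ad-GFP libraries, and 107 to 129 TPM in the batch 2 bleomycin libraries, Ad-GFP b2r2 and all 4 Ad-ATP12A libraries. The 7 libraries of the upper cluster were the 7 highest in summed GTPase TPM. Of the 8 markers 0 rose after bleomycin, 0 in Ad-GFP and 5 in Ad-ATP12A lungs (Cd4, Cd3d, Cd3g, Trac and Cd8a). By limma 1 and 0 markers had an unadjusted p under 0.05 in the first and second, against 5702 and 5125 of 17003 genes. For Ad-ATP12A against Ad-GFP, 0 of the 8 markers were called and all 8 differences were positive, with a median of 0.64. There 6 of 8 had an unadjusted limma p under 0.05, against 413 of 17003 genes. None of the 8 was below 1 TPM in any library. No pooled correlation is given because of the clusters. The part of T cells in the GTPase differences was not tested.

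**Figure D5:**
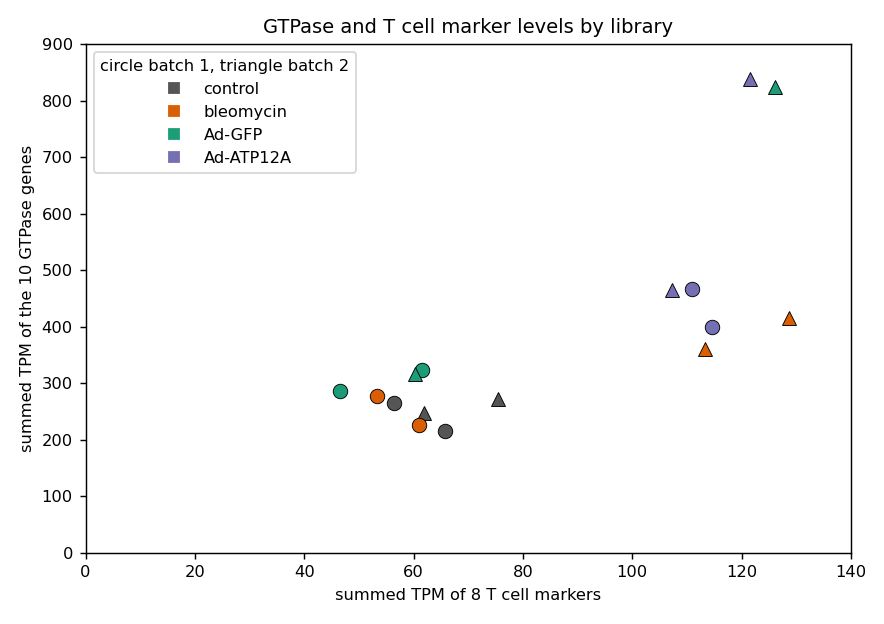
Summed TPM of the 10 GTPase genes against summed TPM of 8 T cell markers in each library, coloured by group, with circles for batch 1 and triangles for batch 2. Libraries fall into a cluster at 46.5 to 75.4 TPM of markers and another at 107 to 129 TPM, and all 4 Ad-ATP12A libraries are in the second.

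The summed TPM of 9 macrophage and monocyte markers was 227 to 362 TPM in controls, 610 to 1066 after bleomycin, 401 to 1413 in Ad-GFP and 553 to 1713 in Ad-ATP12A lungs. The highest were Ad-ATP12A b2r1 and Ad-GFP b2r2. Of the 9 markers 3, 2 and 4 rose in the comparisons with controls, and none was below 1 TPM in any library. Over all genes 5.61%, 4.52% and 9.49% fell in these comparisons. An unadjusted limma p under 0.05 was found for 5702, 5125 and 6324 of 17003 genes. The 9 markers of natural killer and cytotoxic cells gave 0, 0 and 0 that rose and 0, 2 and 3 that fell. Their summed levels were 40.1 to 85.8 TPM in controls and 23.3 to 57.9 TPM in the other libraries. By limma 3 had an unadjusted p under 0.05 after bleomycin, no larger a share than over all genes. Of these 9 markers, Ncr1, Klrb1c, Prf1, Eomes and Tbx21 fell below 1 TPM in some libraries. Neutrophil markers, at 192 to 697 TPM in controls and 134 to 635 TPM in the others, gave 0 calls of 5 in each comparison; by limma 0, 3 and 1 had an unadjusted p under 0.05, and Ly6g, listed at 0 in 1 library, was not tested. Alveolar epithelial markers summed to 9413 TPM in Ad-GFP b2r2 and 8633 TPM in Ad-ATP12A b2r1, the lowest of the 16 libraries. Endothelial markers fell in 3, 3 and 6 of 7, against 5.61%, 4.52% and 9.49% of all genes. Markers of red blood cells, liver and heart, mostly globin RNA, summed to 9964 to 28646 TPM in controls, 3531 to 7822 after bleomycin, 6309 to 13876 in Ad-GFP and 5537 to 22189 in Ad-ATP12A lungs. Of the 6 tested, 4, 1 and 2 fell, the haemoglobin gene Hbb-bt in each (-2.23, -1.43 and -1.41). Whether these cell mixtures contribute to the GTPase levels was not tested.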

How the data were processed

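The deposited table held 1 column per library with log2 values per gene, which the authors made as log2(TPM + 1), judging from the values. STAR alignment to GRCm39 and RSEM quantification are named by the authors, per the submitters' processing notes; versions, annotation release and strand setting are not given in the sources used here. Symbols were matched for 52093 of 53647 identifiers. limma 3.58.1 (R 4.3.3) was fitted to log2(TPM + 1) of all 16 libraries with group means, a batch term and a trended prior. It was two-sided, with Benjamini-Hochberg adjustment over 17003 genes, those that reached 1 TPM in 4 or more libraries, and a threshold of 0.05. Differences between batches came from 8 group-by-batch means. Fold changes on this scale understate those of low genes. TPM keep no read counts, so depth is unknown. The fit was tested on simulated data. Replicate numbers do not pair the samples. Alternatives covered pseudocount, filter, scaling, prior, batch handling, each library left out and, chosen after seeing the data, 2 high libraries left out together and Gbp6 summed with its copies. All 10 members are named; of each list, up to 4 genes with the smallest p after bleomycin, those needed to say which passed, and Ifng and Irf1; for likeness, the 10 highest correlations without predicted models. One gene that these rules name is not reported here and was left out of its list. Members and lists were chosen with earlier results of these data known. Figures used Python 3.11.15 and matplotlib 3.10.9.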

Additional observations from a re-analysis of the deposited data

Results flagged for a closer look

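In 8 of 40 gene and group combinations the highest library lay far from its 3 neighbours, by Dixon's test of the gap to the nearest library over the group's range. Chance flags about 1 in 20 such groups, and the combinations share libraries. For 6 of the 8 the library was Ad-GFP b2r2, with 130.28 TPM of Gbp2, 35.0 TPM of Gbp5, 48.43 TPM of Gbp6, 78.81 TPM of Igtp, 115.49 TPM of Irgm1 and 213.19 TPM of Iigp1. In the other 2 it was Ad-ATP12A b2r1, with 51.64 TPM of Gbp4 and 201.16 TPM of Iigp1.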

How the results depend on the processing

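For bleomycin against control the number of members called, 1, became 0 with no filter on low values, with no batch term, in batch 2 alone and without the 3 libraries low in Scgb1a1. It became 2 with the 2 groups fitted alone (3378 of 17003 genes called) or without the 2 highest libraries (3194 of 16826), and 4 in batch 1 alone. For Ad-GFP against control 2 became 1 with no filter, no batch term or a replicate block, and 0 with the groups alone, batch 2 alone or without the 3 libraries. For Ad-ATP12A against control 8 became 4 with no batch term, 1 in batch 2 alone and 5 without the 3 libraries. For batch 2 against batch 1, 5 became 0 with no filter, quantile normalization, or without the 3 or the 2 libraries, and 1 with median-ratio scaling. Leaving out each library in turn gave 0 to 2, 1 to 4, 5 to 8 and 0 to 7 in these 4 comparisons. The shares of all genes called moved too. For bleomycin they were 18.8% over all libraries, 6.69% with no filter, 13.4% with no batch term, 27.6% and 0.186% in batches 1 and 2 alone, and 8.73% without the 3 libraries. For Ad-GFP 13.7% became 4.46%, 9.24%, 22.7%, 0.633% and 8.2% in the same order, and 5.66% with the groups alone. For Ad-ATP12A 22.8% became 7.94%, 16.9%, 17.8%, 14.1% and 15.9%. Between batches 18.5% became 5.33% with no filter, 12.4% and 12.2% under the scalings, 0% without the 3 and 1.66% without the 2 libraries. The causes were not tested. The counts of 0 for the other comparisons stayed 0 in every alternative run. Signs turned only in differences that had not passed. For bleomycin against control, Gbp7 was 0.15 and Gbp4 0.55 in batch 2 alone, Gbp6 -0.68 in batch 1 alone and -0.083 without the 3 libraries, and Gbp4 ran from -0.32 to 0.045 with a library left out; Gbp3 (-0.081), Gbp5 (-0.16) and Irgm2 (-0.12) turned in batch 1 alone, Gbp2 (0.053) in batch 2 alone, and Gbp5 also under both scalings (-0.012 and -0.018) and without the 3 libraries (-0.029), and single libraries left out turned Gbp2 and Gbp5 too. For Ad-GFP against control, Gbp7 was -0.32, Gbp6 -0.18 and Gbp4 -0.17 in batch 1 alone, and Gbp7 was -0.0034 without the 3 libraries, -0.12 without the 2, and -0.10 to 0.21 with a library left out. For Ad-ATP12A against control, Gbp7 was -0.022 under quantile normalization and -0.017 under median-ratio scaling, -0.063 in batch 1 alone, -0.085 without the 3 libraries, -0.17 without the 2, and -0.15 to 0.27 with a library left out; Gbp4 was -0.011 in batch 1 alone. For Ad-GFP against bleomycin, Irgm1 was -0.059 in batch 1 alone, -0.16 without the 2 libraries (Iigp1 -0.13, Irgm2 -0.029) and -0.15 to 0.37 with a library left out. For Ad-ATP12A against Ad-GFP, Gbp4 was -0.030 in batch 2 alone and Gbp7 0.26 in batch 1 alone and -0.23 to 0.19 with a library left out, which also turned Gbp4. Same-numbered libraries did not deviate together (12 correlations from -0.16 to 0.21, 1 over 0.1). The replicate block gave 1, 1 and 7 members called in the comparisons with control, against 2636, 1830 and 3216 of 17003 genes.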
